A study of Mus musculus with 8 samples.

Results

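The proteasome genes of the lumbar annulus fibrosus (AF) were measured on Mouse Clariom S arrays. They were taken by name, as every probe set whose gene symbol starts with *Psma*, *Psmb*, *Psmc*, *Psmd*, *Psme*, *Psmf* or *Psmg* followed by a number. This gave 48 probe sets of 48 genes among 22206 tested. Of these, 8 belong to the outer (alpha) rings of the core, 7 to its inner (beta) rings and 3 to the immunoproteasome. The cap contributes 6 ATPases and 14 non-ATPases, there are 5 activators, and the last 5 are *Psmf1* with the assembly chaperones.

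KO mice were C57BL6J mice that lack *Abcc6* in the whole body, a model of pseudoxanthoma elasticum, and were compared with WT mice (n = 4 each). KO mice 6, 7, 8 and 9 and WT mice 1, 2, 3 and 5 were all female and 7 months old. The AF of the lumbar discs of each mouse was pooled, so that 1 array is 1 mouse. The comparison asks which transcripts of the AF differ at this age without *Abcc6*, the transporter whose loss lowers pyrophosphate in the circulation.

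The proteasome is the main protease of the cytosol and nucleus. Its core is a stack of rings of alpha and beta subunits, and 3 of the beta subunits cut peptide bonds. The cap binds proteins tagged with ubiquitin, removes the tag and unfolds them with a ring of ATPases that feeds them into the core. Interferon gamma induces the immunoproteasome, in which *Psmb8*, *Psmb9* and *Psmb10* replace the 3 catalytic subunits and yield peptides for MHC class I. White blood cells carry these subunits without induction. When proteasome activity is too low, the transcription factor Nfe2l1 raises the genes of the core and cap together.

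Signals are log2 values, and the level of a gene was compared between mice and not ranked against that of another gene. Of the 48 genes, 46 lay above the median negative control on all 8 arrays. *Psma8*, an alpha subunit of the testis, and *Psmb11*, a catalytic subunit of the thymus, lay below it on all 8. Of 14 markers of AF and cartilage matrix, 9 were above it on all 8 arrays, while *Scx*, a tendon and AF transcription factor, was above it on 0 and *Mkx*, another, on 1. The *Abcc6* probe set read 6.17, 5.64, 5.01 and 5.56 in KO mice 6, 7, 8 and 9, against 5.15, 5.25, 5.23 and 4.97 in WT mice 1, 2, 3 and 5. It was above the negative controls on 1 array only, that of KO mouse 6, and so it cannot check the genotypes.

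Most proteasome genes had a lower mean in KO mice, but few of the differences were large against the spread between mice. Of the 48 genes, 38 had a lower mean in KO mice (79.2%) and 10 a higher one, with a median log2 fold change of -0.30. Over all 22206 probe sets, 47.6% were lower and the median was 0.03, and of those above the median negative control on at least 4 arrays 56.1% were lower. The genes of the proteasome are bright on the array, and a further comparison, chosen after the values were seen, took the 3199 probe sets whose mean signal lay between the quartiles of the 48 genes (9.11 and 13.06 log2). Of those, 71% were lower in KO mice, with a median of -0.26. The lower level was therefore shared with other probe sets of like signal. It depended on the scaling, since after quantile normalization 30 of the 48 were lower (62.5%) with a median of -0.071, against 49.5% and 0.0044 for all probe sets and 53.3% and -0.037 for those of like signal.

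**Figure D1:**
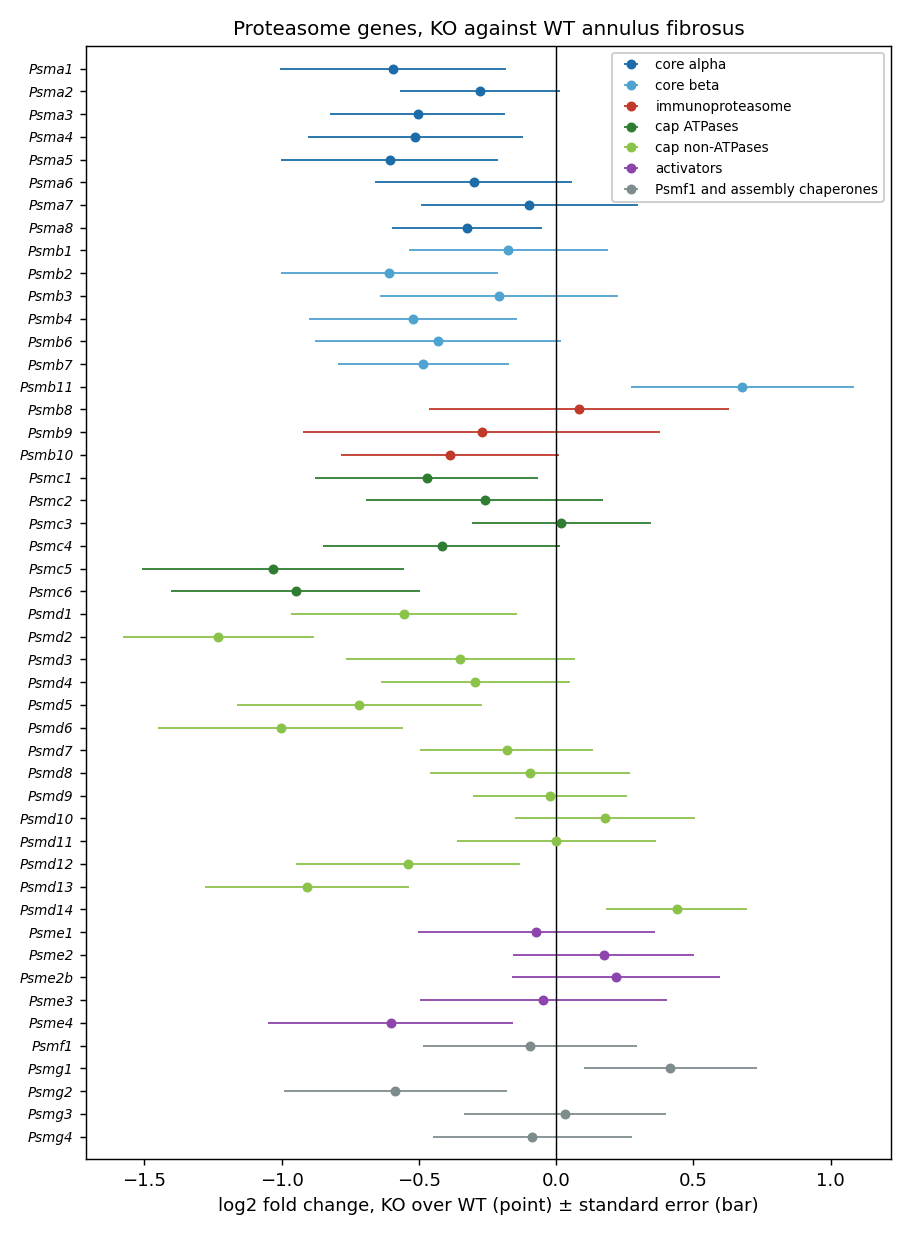
Log2 fold change of the 48 proteasome genes, KO over WT (points), with the standard error of limma (bars), by role. Points left of the line at 0 are lower in KO mice (38 of 48), and *Psmd2* lies farthest left, at -1.23.

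A single gene, *Psmd2*, passed the cutoff of the study (unadjusted p at most 0.01 and at least 1.75-fold) in the lower direction, and 0 passed it in the higher direction. Of all probe sets, 0.725% passed it, 0.297% lower and 0.428% higher, and 0.75% of the 3199 of like signal passed it lower. At an unadjusted p under 0.05 in limma, which tests each probe set with a variance shared in part over all of them, 3 of 48 were lower (*Psmd2*, *Psmd6* and *Psmd13*) and 0 higher, against 2.46% and 2.82% of all probe sets. After adjustment over all probe sets, 0 of 48 proteasome genes and 0% of all probe sets had a p under 0.05 in limma, and the smallest adjusted p of a proteasome gene was 0.848. The KO and WT values of 1 gene, again *Psmd2*, did not overlap, with all KO mice below all WT mice. Of all probe sets, 0.973% had such a gap with KO mice below WT mice and 1.55% with KO mice above them.

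WT mouse 1 and KO mouse 8 carried the highest proteasome signals. WT mouse 1 was the highest of the 8 mice in 27 of the 48 genes (56.2%, against 14.3% of all probe sets and 20.2% of those of like signal). KO mouse 8 was the highest in 13 (27.1%, against 14.1% and 24.8%). Within the KO group, KO mouse 8 stood above the other 3 mice in 38 of 48 genes (79.2%), against 32.3% of all probe sets and 63.3% of those of like signal. The lowest mouse was KO mouse 7 in 20 genes and KO mouse 6 in 16. The mean over the 48 genes was 10.49, 10.42, 11.39 and 10.62 log2 in KO mice 6, 7, 8 and 9, against 11.48, 10.71, 10.89 and 11.06 log2 in WT mice 1, 2, 3 and 5. The genotypes thus overlapped, at 10.73 ± 0.45 in KO and 11.04 ± 0.33 in WT mice (SD, n = 4 each).

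**Figure D2:**
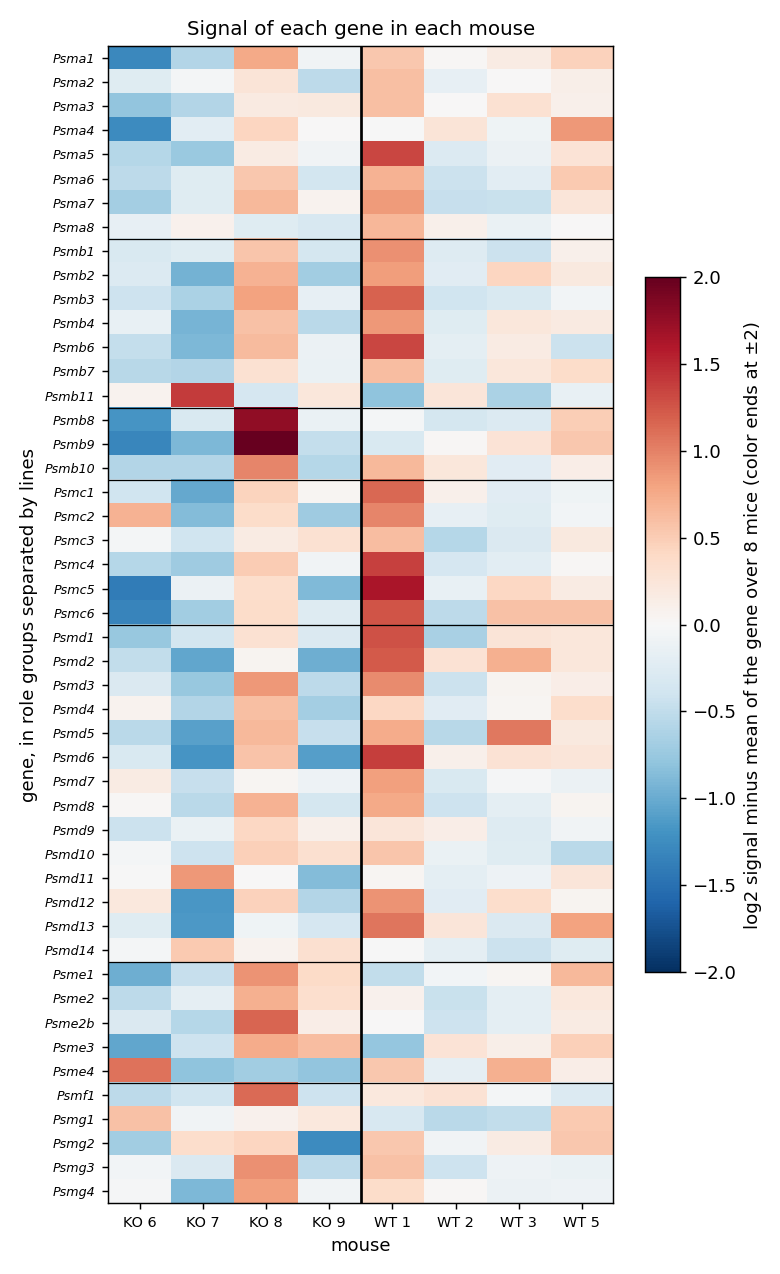
Log2 signal of each of the 48 genes (rows, in role groups) in each mouse (columns), minus the mean of the gene over the 8 mice. Red is above and blue below that mean. The column of WT mouse 1 is red for most of the core and cap, and the column of KO mouse 8 is darkest red at *Psmb8* and *Psmb9*.

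Leaving out a mouse moved the count and the median. Without KO mouse 8, 44 of 48 genes were lower in KO mice, with a median of -0.52, against 48.4% of all probe sets and against 78.3% and a median of -0.47 for those of like signal. Without WT mouse 1, 30 of 48 were lower, with a median of -0.14 (46.8% of all probe sets, and 68.6% and -0.27 for those of like signal). Without KO mouse 6, 32 were lower, with a median of -0.26. Without both WT mouse 1 and KO mouse 8, a choice made after their values were seen, 40 were lower, with a median of -0.40 (47.5% of all probe sets, and 76.7% and -0.46 for those of like signal).

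The array controls moved in part with the proteasome genes. The control contrast of an array is the median signal of its positive controls less that of its negative controls. It was 2.99, 2.37, 4.30 and 2.85 log2 in KO mice 6, 7, 8 and 9, against 4.28, 3.17, 4.22 and 3.61 log2 in WT mice 1, 2, 3 and 5. It averaged 3.13 ± 0.83 in KO and 3.82 ± 0.53 in WT mice (SD, n = 4 each). KO mouse 7 had both the lowest contrast and the lowest proteasome mean. WT mouse 3 had a contrast close to that of WT mouse 1 but a proteasome mean of 10.89 log2, below the 11.06 log2 of WT mouse 5. KO mouse 6 had a higher contrast than KO mouse 9 but a lower proteasome mean (10.49 against 10.62 log2). Fitted beside this contrast, 21 of 48 genes were lower in KO mice and their median was 0.06, against 50.2% and a median of -0.0023 for all probe sets and 52.9% and -0.03 for those of like signal. Since the contrast itself differed between the genotypes, this fit cannot separate it from genotype. The part of array quality in the lower proteasome signal was not tested.

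**Figure D3:**
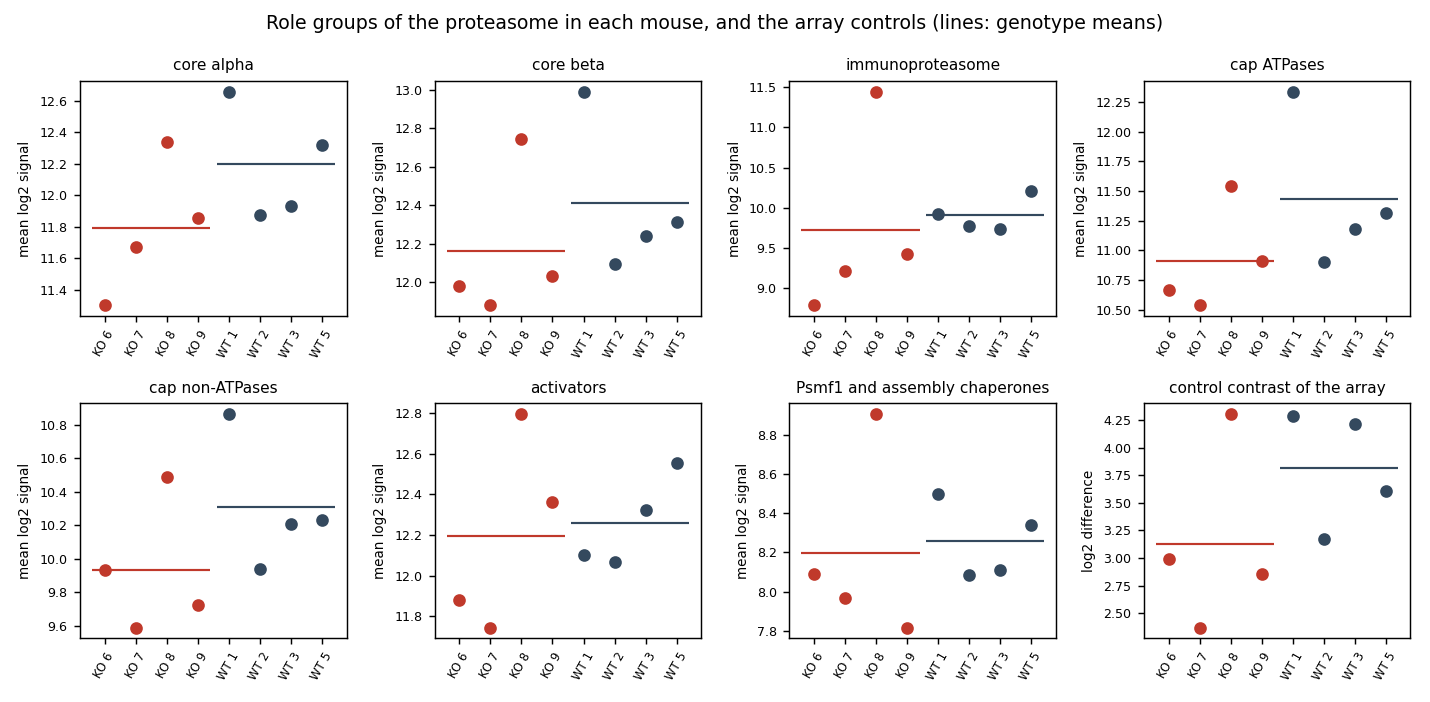
Mean log2 signal of each role group of proteasome genes in each KO (red) and WT (blue) mouse, with genotype means as lines, and the control contrast of the same arrays (last panel). Axes do not start at 0. KO mouse 8 is the highest KO mouse in all 8 panels, and WT mouse 1 is the highest of all mice in the alpha, beta, ATPase and non-ATPase panels.

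The alpha subunits, which form the gated outer rings of the core, were all lower in KO mice (8 of 8, median log2 fold change -0.41), and 0 of them had a p under 0.05 in limma. The fold changes lay between -0.61 and -0.10 log2. The farthest from 0 was *Psma5*, a structural subunit of the ring. *Psma5* read 13.62, 13.45, 14.35 and 14.13 in KO mice 6, 7, 8 and 9, against 15.53, 13.91, 14.07 and 14.46 in WT mice 1, 2, 3 and 5. WT mouse 1 stood alone at the top, and WT mice 2 and 3 lay among the KO mice. KO over WT, *Psma5* was at -0.61 log2 (standard error 0.39, adjusted p = 0.848 in limma), and -0.26 without WT mouse 1. *Psma8*, which replaces another alpha subunit in germ cells of the testis, read 4.03, 4.29, 3.96 and 3.88 in KO mice and 4.87, 4.30, 4.07 and 4.21 in WT mice, all below the negative controls.

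The beta subunits outside the immunoproteasome were lower in KO mice in 6 of 7 cases, with a median of -0.43 and 0 with a p under 0.05 in limma. *Psmb6* encodes the catalytic subunit with caspase-like activity and *Psmb7* the one with trypsin-like activity. The catalytic subunit with chymotrypsin-like activity, *Psmb5*, was not analysed here. *Psmb6* read 11.39, 10.97, 12.50 and 11.75 in KO mice 6, 7, 8 and 9, against 13.20, 11.68, 12.03 and 11.43 in WT mice 1, 2, 3 and 5. *Psmb7* read 11.32, 11.29, 12.18 and 11.74 in KO mice, against 12.48, 11.63, 12.10 and 12.25 in WT mice. For both genes KO mouse 8 lay among the WT mice, and the genotypes overlapped. The log2 fold change was -0.43 (standard error 0.45) for *Psmb6* and -0.48 (standard error 0.31) for *Psmb7*, with adjusted p = 0.859 and 0.848 in limma.

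*Psmb2*, a beta subunit without catalytic activity, had the largest decrease of the beta group. It read 14.49, 13.82, 15.45 and 14.07 in KO mice 6, 7, 8 and 9, against 15.59, 14.53, 15.19 and 14.95 in WT mice 1, 2, 3 and 5. Of the KO mice, 3 were below every WT mouse and KO mouse 8 was above 3 of them. KO over WT, *Psmb2* was at -0.61 log2 (standard error 0.39, adjusted p = 0.848 in limma), and -0.94 without KO mouse 8. *Psmb11*, the thymic catalytic subunit, read 4.54, 5.86, 4.14 and 4.70 in KO mice and 3.66, 4.72, 3.83 and 4.32 in WT mice. Its log2 fold change of 0.68 (standard error 0.41) is a difference between signals below the negative controls.

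In the immunoproteasome KO mouse 8 stood apart, as the highest of all 8 mice for each of the 3 subunits. *Psmb8*, which takes the place of *Psmb5*, read 9.47, 10.35, 12.43 and 10.53 in KO mice 6, 7, 8 and 9, against 10.61, 10.31, 10.38 and 11.15 in WT mice 1, 2, 3 and 5. *Psmb9*, which takes the place of *Psmb6*, read 9.41, 9.81, 12.87 and 10.23 in KO mice, against 10.42, 10.74, 10.995 and 11.26 in WT mice. *Psmb10*, which takes the place of *Psmb7*, read 7.48, 7.48, 9.04 and 7.51 in KO mice, against 8.72, 8.29, 7.84 and 8.20 in WT mice. For *Psmb9* and *Psmb10*, the other 3 KO mice all lay below every WT mouse. The mean of the 3 subunits was 9.72 ± 1.18 in KO and 9.91 ± 0.21 in WT mice (SD, n = 4 each).

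None of the 3 immunoproteasome subunits had a p under 0.05 in limma with all mice. The log2 fold changes were 0.08 for *Psmb8* (standard error 0.54), -0.27 for *Psmb9* (standard error 0.65) and -0.39 for *Psmb10* (standard error 0.40), and the adjusted p was 0.973, 0.927 and 0.859. The standard error of *Psmb9* was the largest of the 48 genes. Without KO mouse 8 the log2 fold changes became -0.49, -1.03 and -0.77, and *Psmb9* then passed the cutoff of the study (unadjusted p = 0.00978 in limma). In the same fit 1.73% of all probe sets passed the cutoff in the lower direction. Without WT mouse 1 as well, *Psmb9* and *Psmd2* passed it, against 2.38% of all probe sets.

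**Figure D4:**
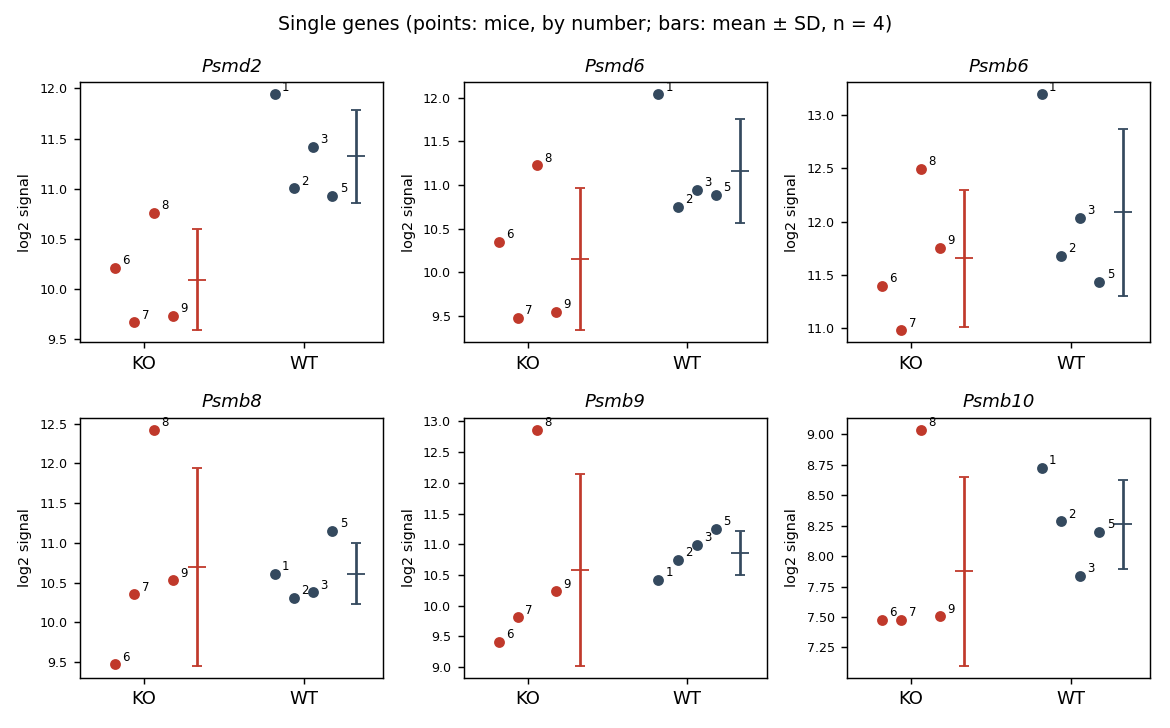
Log2 signal of *Psmd2*, *Psmd6*, *Psmb6*, *Psmb8*, *Psmb9* and *Psmb10* in each KO (red) and WT (blue) mouse, labelled with the mouse number, beside the mean ± SD (n = 4). Axes do not start at 0. All KO mice lie below all WT mice for *Psmd2* only, and KO mouse 8 stands above all other mice for *Psmb8*, *Psmb9* and *Psmb10*.

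The balance between an immunoproteasome subunit and the subunit it replaces was compared for 2 pairs. *Psmb9* minus *Psmb6* was -1.98, -1.16, 0.37 and -1.52 log2 in KO mice 6, 7, 8 and 9, against -2.78, -0.93, -1.04 and -0.18 log2 in WT mice 1, 2, 3 and 5. *Psmb10* minus *Psmb7* was -3.84, -3.81, -3.14 and -4.24 log2 in KO mice, against -3.76, -3.35, -4.26 and -4.05 log2 in WT mice. KO mouse 8 had the highest difference of all 8 mice in both pairs. The KO mean was above the WT mean by 0.16 and 0.10 log2 (p = 0.857 and 0.771, exact permutation test, two-sided, adjusted p = 0.857 for both over 2 pairs). The smallest p that 70 assignments of the mice allow is 0.0286. Without KO mouse 8 the differences were -0.32 and -0.11 log2 (p = 0.686 for each, exact permutation test, two-sided, smallest possible p 0.0571).

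Signs of white blood cells were read beside the immunoproteasome. KO mouse 8 was the highest mouse for 5 of 10 macrophage markers, 5 of 9 B cell markers, 5 of 11 T and NK cell markers and 4 of 13 neutrophil markers. It was so for 14.1% of all probe sets and 24.8% of those with a signal like that of the proteasome genes. Above the negative controls on all arrays were 7 of the 10 macrophage, 6 of the 9 B cell and 6 of the 11 T and NK cell markers. The mean log2 signal of its markers put KO mouse 8 first of all mice in each of these 4 lists. It was 8.74, 8.85, 9.54 and 8.38 log2 in KO mice 6, 7, 8 and 9 for macrophages, against 8.37, 8.68, 8.81 and 9.37 log2 in WT mice 1, 2, 3 and 5. For B cells it was 7.83, 7.48, 9.56 and 8.56 log2 in KO mice, against 7.39, 8.71, 8.21 and 9.38 log2 in WT mice. For T and NK cells it was 7.28, 7.70, 8.28 and 7.53 log2 in KO mice, against 7.18, 7.81, 7.42 and 7.75 log2 in WT mice. At the low end stood KO mouse 6, the lowest of all mice for *Psmb8* and *Psmb9* and for 10 of 13 neutrophil markers. It was the lowest for 0 of 10 macrophage, 1 of 9 B cell and 2 of 11 T and NK cell markers. Of all probe sets, 13.5% were lowest in this mouse. For *Psmb10* it was nearly level with KO mice 7 and 9 (7.476, against 7.479 and 7.505 log2). The neutrophil mean was 15.66 log2 in KO mouse 6, against 17.10, 17.69 and 17.07 log2 in KO mice 7, 8 and 9. In the WT mice this mean lay between 16.998 and 17.59 log2.

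Summed on the linear scale, WT mouse 5 was first for macrophages (16.73 log2, against 16.70 log2 in KO mouse 8) and B cells (14.41 against 14.05 log2). It was also first for neutrophils (22.54 against 22.53 log2), while KO mouse 8 was first for T and NK cells (13.95 log2). The sums for macrophages, B cells and T and NK cells followed single bright genes. *Lyz2* made up 87.1% to 95.6% of the macrophage sum of a mouse, *Ebf1* 33.8% to 85.8% of the B cell sum and *Nkg7* 10.2% to 83.1% of the T and NK cell sum. Without them the sums were 11.82 to 13.67 log2 in KO and 12.05 to 13.50 log2 in WT mice for macrophages, and 10.69 to 13.46 log2 in KO and 10.44 to 13.22 log2 in WT mice for B cells. For T and NK cells they were 11.59 to 12.39 log2 in KO and 10.51 to 12.12 log2 in WT mice. Of the 13 neutrophil markers, 4 lay within 1 log2 of the ceiling of the deposited values (19.93 log2) on all arrays, so that their sum of 21.78 to 22.53 log2 in KO and 22.29 to 22.54 log2 in WT mice is compressed. All 13 were above the negative controls on all arrays. In pooled tissue, more cells of a type and more RNA per cell cannot be told apart, and the part of these cells in the immunoproteasome signal was not tested.

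Genes listed for antigen processing by MHC class I were likewise highest in KO mouse 8 in 6 of 10 cases. Of the rest, *Tapbp*, *Calr*, *Pdia3* and *Irf1*, named after their values were seen, were highest in WT mouse 3. KO over WT, 5 of the 10 were lower and 5 higher, with a median of -0.02 (-0.22 without KO mouse 8) and 0 at the cutoff. *Tap1*, a subunit of the peptide transporter, and *B2m*, the light chain of MHC class I, were named after their values were seen. *Tap1* read 9.07, 10.39, 11.28 and 10.34 in KO mice 6, 7, 8 and 9, against 9.09, 10.05, 10.41 and 10.36 in WT mice 1, 2, 3 and 5. *B2m* read 16.11, 16.19, 17.54 and 16.27 in KO mice, against 15.85, 16.64, 16.01 and 16.27 in WT mice. In both, KO mouse 8 was the highest of all mice and KO mouse 6 the lowest KO mouse.

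*Psmb8* and *Psmb9* are neighbours of *Tap1* in the MHC, and *Psmb9* and *Tap1* start 225 bases apart on opposite strands. The sequences before the starts of *Psmb6*, *Psmb8* and *Psmb9* are given because KO mouse 8 was high for all 3 but led the WT mice only for *Psmb8* and *Psmb9*. They are from RefSeq on GRCm38.p6, 5′ to 3′ on the strand of the gene. Capitals mark the antioxidant response element core in *Psmb6*, the letters bound by Nfe2l1 and Nfe2l2, and a gamma-activated site in *Psmb8*. The stretch shown for *Psmb9* runs to the start of *Tap1* and holds none of the 3 motifs searched.
*Psmb6*, chr11:70525237-70525356, + strand: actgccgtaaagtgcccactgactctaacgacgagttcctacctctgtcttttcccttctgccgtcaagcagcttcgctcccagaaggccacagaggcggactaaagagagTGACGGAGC
*Psmb8*, chr17:34198075-34198194, + strand: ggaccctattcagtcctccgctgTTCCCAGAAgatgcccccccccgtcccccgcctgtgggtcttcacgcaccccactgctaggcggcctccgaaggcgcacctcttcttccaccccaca
*Psmb9*, chr17:34187331-34187555, - strand: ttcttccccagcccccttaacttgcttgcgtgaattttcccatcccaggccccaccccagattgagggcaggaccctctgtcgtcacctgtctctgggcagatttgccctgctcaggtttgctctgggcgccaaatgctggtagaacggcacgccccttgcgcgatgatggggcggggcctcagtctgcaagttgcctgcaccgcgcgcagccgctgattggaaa

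A promoter window of 250 bases before to 50 after the start was at hand for 40 of the 48 genes. It was searched on both strands for the antioxidant response element core (TGACNNNGC), the interferon-stimulated response element (GAAA, NN, GAAA, read without gaps) and the gamma-activated site (TTCNNNGAA). The first was found in 5 of 40 (12.5%, against 14% of all genes), namely *Psmb6*, *Psmc6*, *Psmd9*, *Psmd12* and *Psme4*. The second was found in 5 of 40 (12.5%, against 3.99%), namely *Psmb3*, *Psmd4*, *Psmd9*, *Psme1* and *Psmg4*. The third was found in 3 of 40 (7.5%, against 9.55%), namely *Psmb8*, *Psmd2* and *Psmg1*. These are matches of letters, and binding was not measured.

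The cap ATPases, which form the ring that unfolds substrates, had the highest signal in WT mouse 1 in all 6 cases. Of the 6, 5 were lower in KO mice, with a median of -0.44 and 0 with a p under 0.05 in limma. *Psmc5* had the largest decrease. It read 9.48, 10.76, 11.23 and 9.99 in KO mice 6, 7, 8 and 9, against 12.51, 10.74, 11.30 and 11.05 in WT mice 1, 2, 3 and 5. KO mice 6 and 9 lay below every WT mouse, and KO mice 7 and 8 lay among them. *Psmc5* thus differed by -1.03 log2 (standard error 0.48, unadjusted p = 0.0546, adjusted p = 0.848 in limma), and -0.66 without WT mouse 1. *Psmc3*, another ATPase of the same ring, was the only one with a higher KO mean, by 0.02 log2 (standard error 0.33). It read 13.15, 12.80, 13.37 and 13.51 in KO mice, against 13.82, 12.62, 12.91 and 13.40 in WT mice.

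As a group the ATPases were lowest in KO mouse 7, followed by KO mouse 6. The mean of the 6 ATPases was 10.66, 10.54, 11.54 and 10.91 log2 in KO mice 6, 7, 8 and 9, against 12.33, 10.90, 11.18 and 11.31 log2 in WT mice 1, 2, 3 and 5. Without WT mouse 1 the median of the group was -0.10, with 4 of 6 lower, and fitted beside the control contrast it was 0.00044, with 3 of 6 lower.

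Of the 14 genes named as non-ATPases of the cap, 11 were lower in KO mice, with a median of -0.32, and the group held all 3 proteasome genes with a p under 0.05 in limma. *Psmd2*, the large scaffold at the base of the cap that docks ubiquitin receptors and shuttle factors, had the largest difference of the 48 genes. It read 10.21, 9.67, 10.76 and 9.74 in KO mice 6, 7, 8 and 9, against 11.94, 11.003, 11.42 and 10.93 in WT mice 1, 2, 3 and 5. All KO mice were below all WT mice, and the gap between the highest KO mouse, mouse 8, and the lowest WT mouse, mouse 5, was small against the spread within each genotype. The means were 10.09 ± 0.51 in KO and 11.32 ± 0.46 in WT mice (SD, n = 4 each). *Psmd2* was 2.35-fold lower, or -1.23 on the log2 scale (standard error 0.35, unadjusted p = 0.00504, adjusted p = 0.848 in limma). Fitted beside the control contrast it was -0.80 (unadjusted p = 0.0184 in limma), and without WT mouse 1 it was -1.02 (unadjusted p = 0.0156 in limma), so that it passed the cutoff in neither fit.

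*Psmd6* and *Psmd13* encode subunits of the lid, the part of the cap that removes ubiquitin chains. *Psmd6* read 10.35, 9.48, 11.23 and 9.55 in KO mice 6, 7, 8 and 9, against 12.04, 10.75, 10.94 and 10.89 in WT mice 1, 2, 3 and 5. *Psmd13* read 8.002, 7.10, 8.16 and 7.90 in KO mice, against 9.31, 8.48, 7.95 and 9.04 in WT mice. For *Psmd6*, KO mice 6, 7 and 9 lay below every WT mouse. For *Psmd13*, KO mice 7 and 9 did so, and in both genes KO mouse 8 lay within the WT range. The log2 fold change was -1.003 for *Psmd6* (standard error 0.45, unadjusted p = 0.0477 in limma) and -0.91 for *Psmd13* (standard error 0.37, unadjusted p = 0.0341 in limma), with adjusted p = 0.848 for both. Neither reached the cutoff of the study with all mice, and without KO mouse 8 *Psmd6* did (-1.36, unadjusted p = 0.00668 in limma). In that fit 1.73% of all probe sets passed it in the lower direction.

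*Psmd14* went the other way. It encodes the metalloprotease of the lid that cuts ubiquitin chains off the substrate. *Psmd14* read 9.93, 10.49, 10.03 and 10.28 in KO mice 6, 7, 8 and 9, against 9.95, 9.76, 9.54 and 9.73 in WT mice 1, 2, 3 and 5. Of the KO mice, 3 stood above every WT mouse and KO mouse 6 stood just below WT mouse 1. The log2 fold change was 0.44 (standard error 0.26, adjusted p = 0.848 in limma), and 0.34 to 0.52 when any 1 mouse was left out. *Psmd5*, *Psmd9* and *Psmd10* are named as cap subunits but are chaperones that help to assemble the cap. Their log2 fold changes were -0.72, -0.02 and 0.18.

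The activators, alternative lids that open the core without ubiquitin, had a median of -0.05, with 3 of 5 lower in KO mice and 0 with a p under 0.05 in limma. KO mouse 8 was the highest mouse in 4 of the 5. *Psme1* and *Psme2* encode the subunits of the activator that interferon gamma induces. *Psme1* read 13.24, 13.76, 15.12 and 14.61 in KO mice 6, 7, 8 and 9, against 13.73, 14.16, 14.26 and 14.87 in WT mice 1, 2, 3 and 5. *Psme2* read 14.48, 14.83, 15.72 and 15.34 in KO mice, against 15.09, 14.57, 14.80 and 15.22 in WT mice. Both genes had KO mouse 6 as the lowest and KO mouse 8 as the highest of all mice, and their log2 fold changes were -0.07 (standard error 0.43) and 0.17 (standard error 0.33).

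*Psme2b* is a near-identical copy of *Psme2*, so that its probes may read the transcripts of both. It read 11.02, 10.74, 12.46 and 11.43 in KO mice 6, 7, 8 and 9, against 11.30, 10.90, 11.11 and 11.46 in WT mice 1, 2, 3 and 5. *Psme3*, the activator of the nucleus, read 12.01, 12.63, 13.80 and 13.66 in KO mice, against 12.27, 13.32, 13.16 and 13.53 in WT mice. KO mouse 8 was again the highest, and the log2 fold changes were 0.22 (standard error 0.38) and -0.05 (standard error 0.45).

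*Psme4*, a large nuclear activator known for the breakdown of acetylated histones in developing sperm, did not follow the other activators. It read 8.64, 6.76, 6.87 and 6.77 in KO mice 6, 7, 8 and 9, against 8.10, 7.38, 8.27 and 7.69 in WT mice 1, 2, 3 and 5. KO mouse 6 was the highest of all mice and the other 3 KO mice lay below every WT mouse. Its log2 fold change was -0.60 (standard error 0.45, adjusted p = 0.848 in limma). Without KO mouse 6 it was -1.06 (unadjusted p = 0.00753 in limma) and passed the cutoff, as did 0.185% of all probe sets in the lower direction in that fit.

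*Psmf1*, which binds the core and inhibits it in the test tube, and the 4 assembly chaperones of the core had a median of -0.09, with 3 of 5 lower in KO mice and 0 with a p under 0.05 in limma. *Psmg1* and *Psmg2* encode the pair of chaperones on which the alpha ring is built. *Psmg1* read 8.99, 8.34, 8.48 and 8.62 in KO mice 6, 7, 8 and 9, against 8.07, 7.86, 7.91 and 8.92 in WT mice 1, 2, 3 and 5. *Psmg2* read 7.20, 8.26, 8.33 and 6.63 in KO mice, against 8.43, 7.83, 8.06 and 8.44 in WT mice. The partners differed in direction, and in each the genotypes overlapped. The log2 fold change was 0.42 for *Psmg1* (standard error 0.31) and -0.59 for *Psmg2* (standard error 0.41), each with adjusted p = 0.848 in limma.

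Without *Psma8*, *Psmb11*, the immunoproteasome and the cap chaperones, the subunits of the core and cap measured here number 30. Of these 27 were lower in KO mice, with a median of -0.45, and 25 were highest in WT mouse 1. Of the probe sets of like signal, 71% were lower, with a median of -0.26, and 20.2% were highest in WT mouse 1. Their signal range was drawn from all 48 genes, and some of the 30 lie outside it. The 30 were not counted without WT mouse 1. The role groups, which also hold *Psma8*, *Psmb11* and the cap chaperones, then had weaker decreases. Their medians were -0.21 (alpha, 7 of 8 lower), -0.06 (beta, 4 of 7), -0.10 (ATPases, 4 of 6) and -0.15 (non-ATPases, 8 of 14). For probe sets of like signal these were 68.6% and -0.27. Fitted beside the control contrast, 6 of 8, 3 of 7, 3 of 6 and 7 of 14 were lower, against 52.9%. Without KO mouse 8, 29 of 30 were lower, with a median of -0.68, against 78.3% and -0.47 for those of like signal. In that fit the KO and WT values of 7 of the 48 genes did not overlap, all lower in KO mice (*Psma1*, *Psmb2*, *Psmb9*, *Psmb10*, *Psmd2*, *Psmd6* and *Psmf1*), against 5.86% of all probe sets. The share without overlap was not counted for those of like signal.

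Genes of muscle and nerve were also high in WT mouse 1. It was the highest mouse for 7 of 12 skeletal muscle markers and for 6 of 7 Schwann cell and nerve markers, against 14.3% of all probe sets. The summed signal of the muscle list was 9.99 to 10.55 log2 in KO and 10.03 to 12.24 log2 in WT mice, with 5 of 12 markers above the negative controls on all arrays, and that of the nerve list was 10.45 to 14.73 log2 in KO and 11.96 to 17.27 log2 in WT mice, with 5 of 7. *Pmp22* made up 57.8% to 95% of the nerve sum. From each list 1 gene passed the cutoff, *Tnnt3* of fast muscle (log2 fold change -1.40, above the negative controls on 1 array) and *Mbp* of myelin (-1.69). Of all probe sets, 0.297% passed the cutoff in the lower direction. *Tnnt3* missed it in 7 of 8 fits without 1 mouse, and both missed it beside the control contrast (-1.10 and -1.26). Red cell precursor markers set the same mouse apart at the low end, with a summed signal of 16.14 to 17.32 log2 in KO mice and 14.61 log2 in WT mouse 1, against 15.96 to 17.08 log2 in the other WT mice, and 5 of the 6 were higher in KO mice (median 0.56, 0 at the cutoff). Their part in the proteasome signal of WT mouse 1 was not tested.

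Other factors of the proteasome, from a list of 17 of which 12 were measured, were lower in KO mice in 9 cases, with a median of -0.23 and 0 at the cutoff. The list had 1 gene with a p under 0.05 in limma, *Uchl5*, a ubiquitin protease bound to the cap. *Uchl5* read 10.09, 10.72, 11.39 and 10.76 in KO mice 6, 7, 8 and 9, against 12.06, 11.31, 11.34 and 11.48 in WT mice 1, 2, 3 and 5. KO over WT it came to -0.81 log2 (standard error 0.33, unadjusted p = 0.035, adjusted p = 0.848 in limma). *Pomp*, which matures the core, read 10.37, 10.38, 11.97 and 11.50 in KO mice, against 12.97, 10.95, 11.53 and 11.51 in WT mice, and its log2 fold change was -0.69 (standard error 0.50). KO mouse 8 lay within the WT range in both genes. *Usp14*, another ubiquitin protease of the cap, differed by -0.04 log2 (standard error 0.43), and *Adrm1*, a ubiquitin receptor, was not analysed here.

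*Nfe2l1*, the transcription factor of the core and cap genes, read 16.60, 15.37, 15.83 and 15.56 in KO mice 6, 7, 8 and 9, against 17.16, 15.86, 16.88 and 16.25 in WT mice 1, 2, 3 and 5. WT mouse 1 was the highest and KO mouse 7 the lowest, as for the core and cap. KO mouse 6 lay above WT mice 2 and 5. KO mouse 8, which had the highest proteasome mean of the KO mice, lay below every WT mouse. The log2 fold change was -0.70 (standard error 0.38, adjusted p = 0.848 in limma), and only the transcript was measured. *Nfe2l2*, its relative in the response to oxidants, was below the negative controls on all 8 arrays, and differed by 0.09 log2 (standard error 0.24).

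Upstream of the proteasome, ubiquitin-tagged proteins are pulled out of complexes by the ATPase Vcp and carried by shuttle factors. Of 13 listed genes 11 were measured, 7 were lower in KO mice, the median was -0.33 and 0 passed the cutoff, while *Vcp* and its cofactor *Nploc4* had a p under 0.05 in limma. *Vcp*, named after its values were seen, read 7.78, 7.78, 10.47 and 7.74 in KO mice 6, 7, 8 and 9, against 10.65, 8.87, 10.30 and 9.96 in WT mice 1, 2, 3 and 5. KO mice 6, 7 and 9 lay below every WT mouse, and KO mouse 8 above 3 of them. Its log2 fold change was -1.50 (standard error 0.63, unadjusted p = 0.0382, adjusted p = 0.848 in limma). Without KO mouse 8 it was -2.18 and passed the cutoff (unadjusted p = 0.000464 in limma). Of all probe sets, 1.73% passed it in the lower direction in that fit. Beside the control contrast *Vcp* was at -0.47. Of the 6 listed ubiquitin genes and activating enzymes 1 was measured, *Uba6*, at -0.59 log2 KO over WT (standard error 0.34).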

How the data were processed

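Total RNA of the AF of 4 KO and 4 WT mice was labelled with the GeneChip WT Plus kit and hybridised to Mouse Clariom S arrays. The deposited values are log2 signals that the authors made with sst-RMA in the Transcriptome Analysis Console, with 0 other sample columns left out. The genome build and annotation behind the array are not given in the sources used here. All 48 symbols matched the RefSeq table of GRCm38.p6 by gene identifier. The table holds no detection p-values, so that the filter of the study on detection was not repeated, and signals were read against the median signal of 5222 negative controls on the same array. Array medians differed by at most 0.18 log2, and correlations between arrays ran from 0.893 to 0.969.

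In R 4.3.3, lmFit and eBayes of limma 3.58.1 gave the difference of KO from WT without a covariate for the 22206 probe sets that are not controls, and p-values were adjusted over all of them by Benjamini and Hochberg. The cutoff is that of the methods. Their array test is not named. The procedure was tested on simulated data. Pairs of subunits were compared in Python 3.11.15 with scipy 1.17.1 by the exact permutation test. The planned pair of *Psmb8* and *Psmb5* was not made, since no probe set in use is annotated to *Psmb5*.

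The named genes were the catalytic and immunoproteasome subunits, *Psma8*, *Psmb11*, all activators, genes with an unadjusted p under 0.05, the largest increase and decrease of each role, listed genes at the cutoff, *Nfe2l1*, *Nfe2l2*, *Pomp*, *Usp14*, *Uchl5* and *Abcc6*. The cap chaperones *Psmd5*, *Psmd9* and *Psmd10* and *Uba6* were added for their roles. The genes, lists and alternatives were chosen with earlier results of these data known. Alternatives were other normalizations, a filter on low signal, variance models, array weights, an unpaired test, the control contrast as a covariate, other cutoffs, and leaving out mice. With 4 arrays a genotype, precision is limited by their number.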

Additional observations from a re-analysis of the deposited data

Results flagged for a closer look

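In 6 of the 110 sets of 4 mice examined (the 48 proteasome genes and the 7 role means, in each genotype), a single mouse lay far from the other 3, where about 1 in 20 sets does so by chance. KO mouse 8 stood above the other KO mice for *Psmb1*, a beta subunit without catalytic activity, at 15.86 against 14.96 to 15.08 log2. The same mouse stood above the other KO mice for *Psmb10*, at 9.04 against 7.48 to 7.51 log2, and for the core inhibitor *Psmf1*, at 10.69 against 9.04 to 9.16 log2. WT mouse 1 stood above the other WT mice for the cap ATPase *Psmc2*, at 10.67 against 9.46 to 9.65 log2, and for the lid subunit *Psmd6*, at 12.04 against 10.75 to 10.94 log2. KO mouse 6 stood above the other KO mice for the activator *Psme4*, at 8.64 against 6.76 to 6.87 log2.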

How the results depend on the processing

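Without each mouse in turn, 0 to 3 proteasome genes reached the cutoff. *Psmd2* did so without WT mice 2 and 5 and KO mice 6 and 8, joined by *Psme4* without KO mouse 6 and by *Psmb9* and *Psmd6* without KO mouse 8. It was lost without WT mice 1 and 3 and KO mice 7 and 9, while its log2 fold change lay between -1.45 and -1.02 over all 8 settings. The count at the cutoff was 0 with the control contrast as a covariate, with an intensity trend and robust priors, with the unpaired test and at an adjusted p under 0.05, 3 at an unadjusted p under 0.05 with no fold limit, and 2 without both WT mouse 1 and KO mouse 8. It was 1 under quantile normalization, median centring, the filter on low signal and array weights. The count of genes lower in KO mice ran from 30 to 44 without 1 mouse was 30 after quantile normalization and was 21 with the covariate. The median ran from -0.52 to -0.14 without 1 mouse, and was -0.071 after quantile normalization and 0.060 with the covariate. Genes without overlap numbered 1 to 7 without 1 mouse, 2 after quantile normalization and 8 without both mice. The 7 without KO mouse 8 were all lower in KO mice, against 5.86% of all probe sets. The 8 without both mice were 7 lower and 1 higher (*Psmd14*) in KO mice. Except with all mice and without KO mouse 8, the share without overlap over all probe sets was not counted. These counts without overlap have no background to be read against. *Tnnt3* also missed the cutoff with array weights, with the unpaired test and without both mice, and *Mbp* with the unpaired test, while *Vcp* passed it with array weights (-1.84) and without both mice (-1.94). The cause of these changes was not tested.

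Single genes changed sign as follows, in log2 fold change. With the covariate *Psmb6* was 0.15, *Psmb9* 0.53, *Psmb10* 0.060, *Psme1* 0.20, *Psme3* 0.091, *Usp14* 0.49 and the MHC gene *H2-K1* 0.20. With array weights *Psmb8* was -0.30, *Usp14* 0.018 and *Tap1* -0.020. Without both mice *Psmb8* was -0.49, *Psme2b* -0.094, *Usp14* 0.10, *Tap1* -0.34 and *B2m* -0.11. After median centring *Psmc3* was -0.030, and after quantile normalization *Psme1* was 0.11, *Psme3* 0.21, *Nfe2l2* -0.038 and *H2-K1* 0.033. Without 1 mouse the lowest and highest values were -0.49 and 0.49 for *Psmb8*, -1.03 and 0.12 for *Psmb9*, -0.17 and 0.23 for *Psmc3*, -0.39 and 0.24 for *Psme1*, -0.034 and 0.38 for *Psme2*, -0.13 and 0.44 for *Psme2b*, -0.31 and 0.29 for *Psme3*, -0.28 and 0.34 for *Usp14*, -0.045 and 0.69 for *Tap1*, and -0.47 and 0.12 for *H2-K1*. The pair *Psmb9* minus *Psmb6* ran from -0.36 to 0.51 and *Psmb10* minus *Psmb7* from -0.11 to 0.27. No paired analysis was possible because the mouse numbers are not shared between the genotypes.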
